A study of Mus musculus with 2 samples.

Results

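Pro-B cells were chosen by their measured UMIs: they were the cell barcodes of 2 mouse single-cell RNA libraries that held at least 5 UMIs (unique molecular identifiers, each counting 1 captured RNA molecule) of Ebf1, at least 2 UMIs of Dntt, fewer than 5 of Cxcl12 and fewer than 5 of Siglech. The barcodes also passed limits of 500 UMIs and 300 genes, with mitochondrial UMIs at 10% or less. The gate held 396 of 17459 cells that passed these filters, out of 18362 barcodes. Of these, 292 came from femur bone marrow and 104 from ectopic bone marrow. The ectopic marrow grew under the skin around 40 mg of β-tricalcium phosphate (β-TCP) loaded with 8 µg of BMP-2, a bone morphogenetic protein, and was taken 4 weeks later. Implants had been placed in C57BL6 or Cxcl12-GFP mice. In both libraries the hematopoietic cells came from wild-type C57BL6J mice, and CXCL12-abundant reticular (CAR) cells, which are marrow stromal cells, came from Cxcl12-GFP mice. Collagenase released the cells, the CAR fraction was depleted of hematopoietic and endothelial cells and sorted, and both fractions were mixed before capture. The age, sex and number of the mice and any pooling are not given in the sources used here. The study compared a marrow induced by BMP-2 with that of the femur, and each tissue was 1 library.

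Pro-B cells are the stage at which a lymphoid precursor, committed by the transcription factor EBF1, joins the gene segments of its immunoglobulin heavy chain. RAG1 and RAG2 cut the segments, end-joining proteins seal them, and terminal deoxynucleotidyl transferase (TdT, encoded by Dntt) adds bases at the joints that no template specifies. The heavy chain is then tested in the pre-B cell receptor, in which VPREB1 and λ5 (encoded by Igll1) stand in for a light chain. Interleukin 7 (IL-7) and CXCL12 from marrow stroma are known to support these cells.

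The sequences upstream of Igll1, Vpreb1 and Dntt are shown because Dntt set the gate with Ebf1, and because Vpreb1 and Igll1 are the marker genes that the gate left free. Each is the stretch of 250 bases that ends just before the annotated start of the gene, outside its exons, from RefSeq on the mouse build GRCm38.p6, read 5′ to 3′ on the strand of the gene. Capitals mark CCCNNGGG, the core of the motif bound by EBF proteins, which reads the same on both strands.

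Igll1: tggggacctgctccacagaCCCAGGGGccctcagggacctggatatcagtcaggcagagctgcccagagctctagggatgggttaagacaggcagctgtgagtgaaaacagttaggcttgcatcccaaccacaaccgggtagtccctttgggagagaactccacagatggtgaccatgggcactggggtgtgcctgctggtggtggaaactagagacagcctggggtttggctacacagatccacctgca

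Vpreb1: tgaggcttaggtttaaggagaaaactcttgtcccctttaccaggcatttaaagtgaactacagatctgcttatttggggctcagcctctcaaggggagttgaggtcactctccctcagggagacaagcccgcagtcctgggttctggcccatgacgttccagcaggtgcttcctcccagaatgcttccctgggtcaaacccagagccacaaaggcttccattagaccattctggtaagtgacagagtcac

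Dntt: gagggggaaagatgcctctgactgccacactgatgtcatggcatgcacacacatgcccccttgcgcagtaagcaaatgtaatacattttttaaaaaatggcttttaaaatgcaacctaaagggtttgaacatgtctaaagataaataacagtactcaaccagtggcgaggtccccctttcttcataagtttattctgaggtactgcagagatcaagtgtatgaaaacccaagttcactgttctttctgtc

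The Igll1 stretch lies at chr16:16863986-16864235 on the minus strand and held 1 match, whose first base was at position -231 from the start. The Vpreb1 stretch (chr16:16869256-16869505, minus strand) and the Dntt stretch (chr19:41029025-41029274, plus strand) held 0 matches each. The same letters were found upstream of 13.4% of the 27025 genes in the table. The E-box CAGNTG, the core bound by E proteins such as E2A, was found 3 times upstream of Igll1, 1 time upstream of Vpreb1 and 0 times upstream of Dntt, on either strand, and upstream of 48.2% of all genes. A match to these letters is a description of the sequence and shows no binding.

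The femur matrix held 11148 barcodes and the ectopic matrix 7214, and both shared 26 barcode sequences, 0 of them in pro-B cells. Pro-B cells had a median of 13456 UMIs in the femur (range 1569 to 114880) and 12888 in the ectopic library (3263 to 84554). A doublet score marked 910 femur and 369 ectopic cells, among them 44 femur and 9 ectopic pro-B cells. They were kept, and the main values without them are given below. With 1 library per tissue no difference was tested, and no spread between animals is known. Every interval below is an exact 95% interval and covers counting error only.

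The marker genes fitted the name of the gate. Ebf1 and Dntt chose the cells, so their levels are a description only. Dntt ran from 2 to 201 UMIs per cell with a median of 18 in the femur, and from 2 to 77 with a median of 13.5 in the ectopic library. Ebf1 had medians of 134 and 163 UMIs, with lowest values of 6 and 18. Vpreb1, which the gate did not use, had a UMI in 93.5% (90.0 to 96.0) of femur and 96.2% (90.4 to 98.9) of ectopic pro-B cells. Both Vpreb1 and Igll1 had one in 91.4% and 94.2%, and 13 femur and 3 ectopic cells had neither.

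T cells of the same libraries (Cd3e from 2 UMIs and no Ebf1 UMI) should lack Vpreb1. It had a UMI in 0.873% of 229 femur T cells (median depth 8690 UMIs) and 4.25% of 259 ectopic ones (11402 UMIs). After every cell was thinned to 3000 UMIs, which left out 6 femur and 0 ectopic pro-B cells, Vpreb1 was seen in 91.3% (87.4 to 94.3) of femur and 95.2% (89.1 to 98.4) of ectopic pro-B cells. In thinned T cells it was seen in 0 of 227 in the femur, which allows a share of up to 1.32%, and in 1.55% in the ectopic library.

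The Dntt threshold cut through a sparse range. Among Ebf1 cells, 2687 femur and 2219 ectopic cells had no Dntt UMI, and 58 and 29 had 1 UMI and stayed outside. Just inside, 17 and 9 cells had 2 UMIs, and 11 and 2 had 3. Of cells with at least 2 Dntt UMIs, 38 femur and 13 ectopic ones stayed outside because Ebf1 was under 5 UMIs, 30 and 8 of them with no Ebf1 UMI. The Siglech limit, set against plasmacytoid dendritic cells, left out 16 femur cells and 1 ectopic cell, and the Cxcl12 limit 4 and 1.

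Pro-B cells took a smaller share of the ectopic than of the femur library. They were 292 of 10381 femur cells outside CAR cells (2.81%, 2.50 to 3.15) and 104 of 6601 ectopic ones (1.58%, 1.29 to 1.91), a ratio of 0.560 (0.443 to 0.703). CAR cells were left out of the total because the mixing set their share. Of Ebf1 cells, that is all cells within the same Ebf1, Cxcl12 and Siglech limits, pro-B cells were 9.61% of 3037 femur cells and 4.42% of 2352 ectopic cells, a ratio of 0.460 (0.364 to 0.577). When each cell was first thinned to 3000 UMIs and gated at 2 Ebf1 UMIs, 1 Dntt UMI and fewer than 2 Siglech UMIs, 291 of 9853 femur and 99 of 6343 ectopic cells passed. The thinning left out 528 and 258 cells.

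Gates of Ebf1 cells with under 2 Dntt UMIs were set beside them. Cycling precursors (at least 5 UMIs of Mki67 plus Top2a, Ighd under 2) were 12.6% of femur and 5.61% of ectopic Ebf1 cells, a ratio of 0.446 (0.363 to 0.545). Resting precursors (Mki67 plus Top2a under 2 UMIs, Rag1 from 2, Ighd under 2) were 14.5% and 9.35%, a ratio of 0.647 (0.548 to 0.763). Ighd cells (Ighd from 5 UMIs, Rag1 under 2), the most mature of these gates, were 19.3% and 33.7%, a ratio of 1.74 (1.57 to 1.94). The interval of pro-B cells overlapped those of both precursor gates and lay apart from that of Ighd cells.

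**Figure D1:**
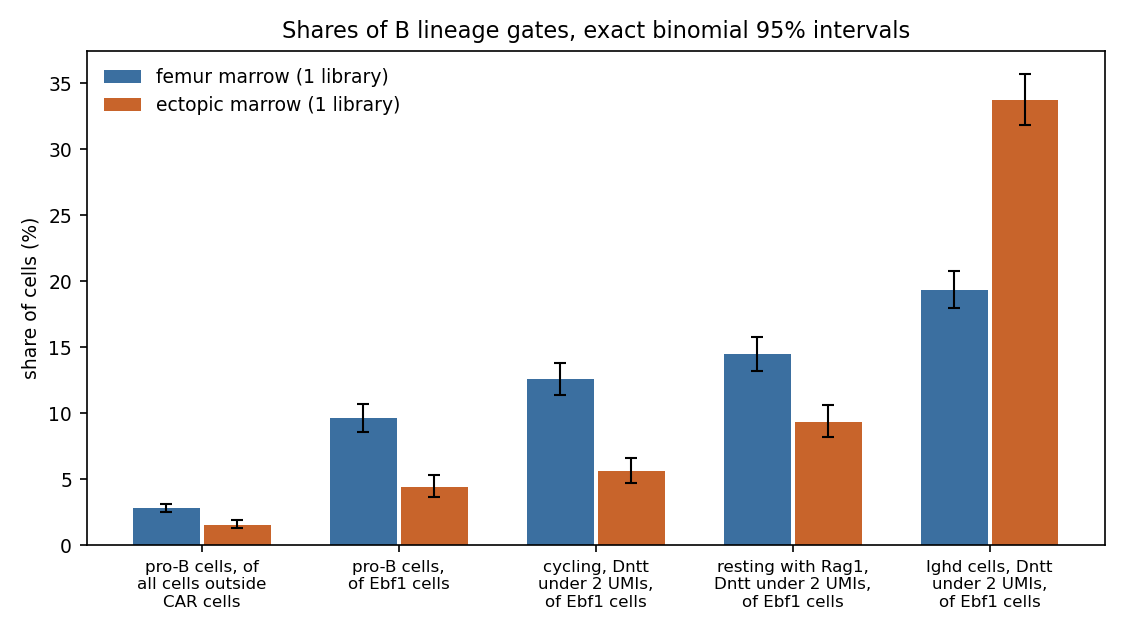
Share of cells (y axis, percent) in the pro-B gate and in 3 other gates of Ebf1 cells (x axis), with femur and ectopic libraries side by side and exact binomial 95% intervals. The precursor gates stand lower in the ectopic library, pro-B cells at 4.42% against 9.61% of Ebf1 cells, and Ighd cells stand higher at 33.7% against 19.3%.

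Among single pro-B cells, surrogate light chain genes were present in nearly every cell and recombination and cytokine receptor genes were at a few UMIs. Vpreb1 had a median of 32 UMIs in the femur (quartiles 19 and 43, highest 89) and 42 in the ectopic library (25.8 and 53.2, highest 84). Per 10000 UMIs of a cell its medians were 20.9 and 26.8, and those of Igll1 13.6 and 16.8. Rag1 had medians of 3 and 4 UMIs per cell and highest values of 23 and 29. Il7r, the gene of the IL-7 receptor α chain, had medians of 3 and 2 UMIs and highest values of 25 and 26. The ranges of both libraries overlapped widely for all of these genes.

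A few cells stood outside this picture, in sets chosen after their values were seen. Flt3, a cytokine receptor gene of early lymphoid progenitors, was at 10 or more UMIs in 11 femur and 3 ectopic cells, with a median of 0 among all pro-B cells of each library. Of these, 10 and 3 had under 3 Vpreb1 UMIs, their median Ebf1 counts were 43 and 69 UMIs, and 9 and 2 were marked as doublets. Igkc, the κ light chain constant gene used after the pro-B stage, was at 10 or more UMIs in 19 femur and 8 ectopic cells, whose median Dntt counts were 6 and 5 UMIs. No cell type name was given to either set.

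Neutrophil RNA was higher in the femur pro-B cells. S100a8, a neutrophil gene, had medians of 7 and 5 UMIs per pro-B cell. After thinning, 78.3% of femur and 62.5% of ectopic pro-B cells had a UMI of it, beside 79.7% and 73.3% of T cells. The source of this low level was not tested. Apart from it, 37 of 292 femur pro-B cells (12.7%, 9.08 to 17.0) and 6 of 104 ectopic ones (5.77%, 2.15 to 12.1) held more than 50 S100a8 UMIs, from 134 to 4737 in the femur and from 111 to 2241 in the ectopic library. The next lower cells had 42 and 18 UMIs. Of the cells rich in S100a8, 33 and 5 were marked as doublets. Such counts were also found in 7.94% and 4.05% of the other Ebf1 cells. Among these, the cycling precursors had them in 13.6% (femur) and 6.82% (ectopic), so they were not particular to pro-B cells. Without the pro-B cells rich in S100a8, the share of pro-B cells outside CAR cells was 2.46% (femur) against 1.48% (ectopic), a ratio of 0.604 (0.474 to 0.766). At least 5 UMIs of T and NK cell markers were found in 10 and 0 femur and ectopic pro-B cells and of myeloid progenitor markers in 23 and 1. Erythroid markers, which include the globin genes, reached 5 UMIs in 19 and 9 cells, monocyte markers in 105 and 40, plasma cell markers in 12 and 5, and CAR cell markers in 0 and 0. Most cells reached 5 UMIs of the plasmacytoid dendritic cell list (262 and 91 cells) and of the neutrophil list (289 and 104).

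**Figure D2:**
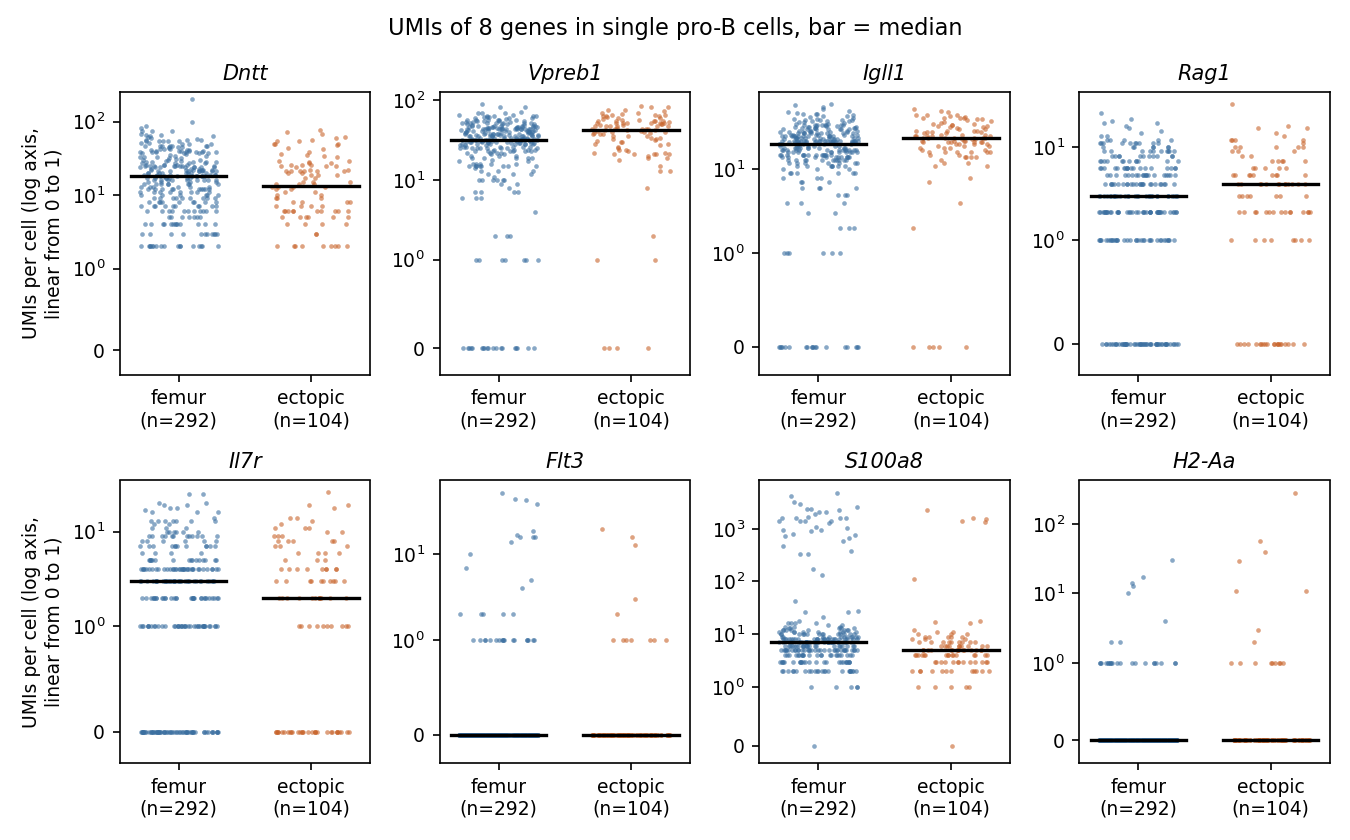
UMIs per cell (y axis, log axis, linear from 0 to 1) of selected genes in 292 femur and 104 ectopic pro-B cells, 1 point per cell, with the median as a bar. Vpreb1 and Igll1 are present in nearly every cell, S100a8 falls into a main group and 37 femur and 6 ectopic cells above 50 UMIs, and H2-Aa is at 0 in most cells.

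A smaller share of ectopic than of femur pro-B cells carried mitosis transcripts. At least 5 UMIs of Mki67 plus Top2a, genes of proliferating cells, were found in 119 of 292 femur cells (40.8%, 35.1 to 46.6) and 27 of 104 ectopic cells (26.0%, 17.9 to 35.5), a ratio of 0.637 (0.403 to 0.974). Fewer than 2 such UMIs were found in 155 and 69 cells, and 18 and 8 lay between. In cells thinned to 3000 UMIs, Mki67 was seen in 40.6% and 24.04% of pro-B cells, against 6.61% and 4.65% of T cells. Without the cells rich in S100a8 the shares were 38.4% and 24.5%, and the interval of the ratio, 0.637 (0.390 to 1.004), then included 1. On the log2 scale the ratio was -0.65 (-1.31 to -0.04), and its interval included 0 in 6 of 11 other settings: without the cells rich in S100a8, without marked doublets (37.1% and 25.3%, -0.55 (-1.27 to 0.11)), with Dntt from 1 UMI, with at most 5% mitochondrial UMIs, without cells with markers of other types, and without the cells rich in Flt3 or Igkc. The cut is a range on a per-cell value and names no cell type.

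Within each library, the pro-B cells above that cut, called cycling here, held more RNA and a lower level of Rag1. Their median totals were 25080 (femur) and 29691 (ectopic) UMIs, against 9088 and 10730 in cells not cycling. The cut is on raw UMIs and was not scaled to a cell's total. Of the cycling femur cells 27 of 119 were marked as doublets and 21 were rich in S100a8, against 14 and 12 of 155 not cycling. In the ectopic library these were 3 and 3 of 27, against 4 and 3 of 69, and their part in the differences was not tested. In CPM (UMIs of a gene per 1000000 UMIs of the gate), Rag1 stood at 104 against 478 CPM in the femur and 60.8 against 470.4 CPM in the ectopic library, with log2 ratios of -2.20 and -2.95. The median Rag1 count per cell was 2 against 4 UMIs in the femur and 1 against 4 in the ectopic library, lower in cycling cells despite their larger totals. Rag2 had log2 ratios of -0.54 and -1.41 in CPM, within 2-fold in the femur. Xrcc6, which encodes the DNA end-binding protein Ku70, had -1.20 and -1.86.

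Surrogate light chain genes differed from Rag1 in this respect. Vpreb1 stood at 1273 against 2817 CPM in the femur and 1243 against 3452 CPM in the ectopic library, but its median count per cell was 34 against 32 UMIs in the femur and 42 against 42 in the ectopic library. Igll1 had log2 ratios of -1.07 and -1.26 in CPM and median counts of 22 against 19 and 26 against 23 UMIs. Il7r had log2 ratios of -0.01 and 0.18 in CPM, and its median count was 4 against 1 and 6 against 1 UMIs. A lower CPM in cycling cells thus went with a count per cell that was no lower for Vpreb1 and Igll1, while for Rag1 both were lower.

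Among 5754 genes with at least 50 UMIs in each library over both sets of cells, 489 (8.5%) were at least 2-fold higher in cycling cells in both libraries and 389 (6.76%) at least 2-fold lower. The cut used Mki67 and Top2a, so the G2 and M phase genes (13 of 13 measured higher) and S phase genes (14 of 14 higher) describe it. Of the surrogate light chain and receptor list 4 of 7 genes were lower, Vpreb1, Vpreb2, Igll1 and Vpreb3. The recombination and end joining list went both ways, with 2 of 11 genes higher and 2 lower. Of B lineage transcription factors 4 of 22 were lower and 0 higher: Ikzf3, Spib, Foxo1 (log2 ratios of -1.16 and -1.78), which drives Rag gene expression, and Erg (-1.37 and -1.24). Of the IL-7 list 1 of 8 was lower, Il2rg. The lowest ratios were those of the protocadherin gene Pcdh9, with 0 UMIs in cycling ectopic cells, and the calcium channel gene Cacna1e, at 52.4 against 669.5 CPM in the femur and 25.4 against 757 CPM in the ectopic library.

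**Figure D3:**
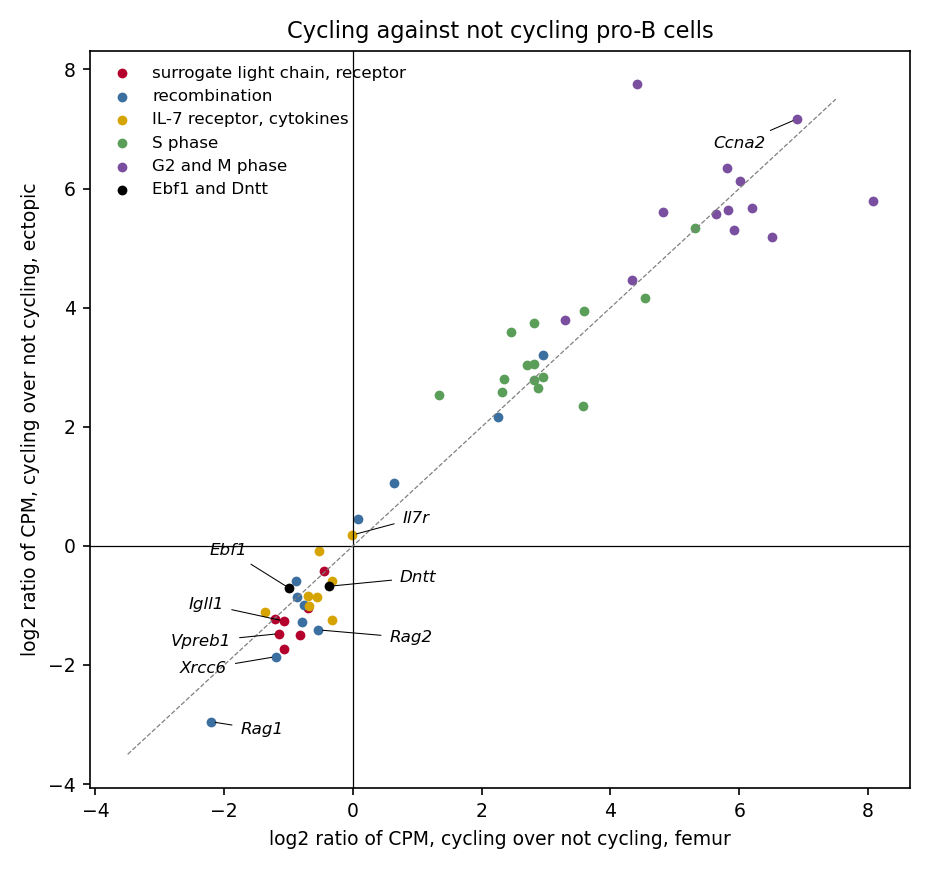
Log2 ratio of CPM in cycling over non-cycling pro-B cells, femur on the x axis and ectopic on the y axis, 1 point per gene of the lists shown. Rag1 lies at -2.20 and -2.95, Vpreb1 at -1.15 and -1.47 and Il7r at -0.01 and 0.18, and the mitosis genes that the cut selects lie far to the upper right.

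Between the tissues, most gene lists had medians near that of all genes, while mitosis genes were lower and Enpep, Ccnd2 and Id3 higher in ectopic pro-B cells. Of 9654 genes with at least 50 UMIs over both libraries, 551 (5.71%) were at least 1.5-fold higher in ectopic pro-B cells and 783 (8.11%) at least 1.5-fold lower, 13.8% in all, with a median log2 ratio of 0.02. This is a rule of size and no test. Higher genes were 41.3% of those past it, and 31.1% (419 higher and 927 lower) with TMM scaling. Without the cells rich in S100a8, 5.55% of 9058 genes were higher and 6.62% lower. Within cycling cells the shares were 7.43% and 13.2% of 8166 genes, and within non-cycling cells 5.67% and 6.58% of 6808. Without marked doublets 499 genes (5.68%) were higher and 553 (6.29%) lower, of which 341 and 388 were also past the rule with them. In what follows a gene is called higher or lower in ectopic pro-B cells only where it passed the rule, and ratios are ectopic over femur.

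In the surrogate light chain and receptor list, 1 of 7 measured genes was higher and 0 lower, with a median log2 ratio of 0.23. Vpreb1 stood at 1797 CPM in femur pro-B cells and 2246 CPM in ectopic ones, a ratio of 1.25 (1.20 to 1.30). Igll1 stood at 1145 and 1341 CPM, a ratio of 1.17 (1.12 to 1.23). Vpreb2 was the gene past the rule, at 184 and 313 CPM with a ratio of 1.70 (1.53 to 1.88), but it is a near-identical copy of Vpreb1 and the counting could divide their reads. In all other cells outside CAR cells Vpreb2 had a ratio of 1.55. The signalling chain genes Cd79a and Cd79b had ratios of 1.11 and 1.29, and Ighm, the μ heavy chain gene, of 1.02 (0.977 to 1.07). The list median was -0.03 within cycling and 0.17 within non-cycling cells.

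Recombination genes lay at the level of all genes. Of 16 measured genes 0 were higher and 1 lower, with a median log2 ratio of 0.00. Rag1 stood at 237 CPM in femur pro-B cells and 255 CPM in ectopic ones, a ratio of 1.07 (0.964 to 1.19), and Rag2 at 71.7 and 69.8 CPM, a ratio of 0.973 (0.791 to 1.19). Within non-cycling cells Rag1 had a log2 ratio of -0.02, and within cycling cells of -0.77. The end-joining genes Lig4, Xrcc4 and Prkdc had log2 ratios of 0.00, 0.15 and 0.04. Polm, a polymerase gene of end joining, was past the rule with 49 femur and 8 ectopic UMIs, a ratio of 0.445 (0.182 to 0.947). Dntt, which the gate used, stood at 1281 and 1067 CPM.

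Of 23 B lineage transcription factors 2 were higher and 2 lower, with a median log2 ratio of 0.09. Pax5, which keeps B cells committed, had a ratio of 1.19 (1.12 to 1.26), Foxo1 of 1.13, Lef1 of 1.12, Tcf3 (E2A) of 1.09, Ikzf1 (Ikaros) of 0.887 and Erg of 1.06. Id3, an inhibitor of E proteins, was higher at 142 and 264 CPM, a ratio of 1.86 (1.66 to 2.09), with UMIs in 209 of 292 femur and 94 of 104 ectopic cells. Its log2 ratio was 0.70 within cycling and 1.22 within non-cycling cells, and in all other cells outside CAR cells Id3 had a ratio of 1.83. Ikzf3 (Aiolos), which is used from the pre-B stage, was higher at 29.7 and 66.0 CPM, but 71.0% of its ectopic UMIs lay in 5 cells and its log2 ratio was -0.40 without cells marked as doublets. Id2 and Spi1, used in innate and myeloid cells, were lower with log2 ratios of -1.001 and -0.64. Without the cells rich in S100a8 they had -0.38 and -0.32, and 0 of the list were lower.

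Of 12 measured genes of the IL-7 and cytokine list 3 were higher and 1 lower, with a median log2 ratio of 0.12. Il7r stood at 226 CPM in femur pro-B cells and 221 CPM in ectopic ones, a ratio of 0.976 (0.870 to 1.09). Crlf2, a receptor chain for TSLP, was higher (ratio 1.59 (1.23 to 2.05)), as were the feedback inhibitor genes Socs2 (1.82 (1.48 to 2.23)) and Cish (2.16 (1.19 to 3.87)), known targets of STAT5. Cish rested on 29 and 23 UMIs. Stat5a and Stat5b themselves had log2 ratios of 0.08 and -0.33, and Pim1, another STAT5 target, of 0.08. Flt3 was lower at 64.9 and 32.5 CPM, with 88.5% of its ectopic UMIs in 5 cells, and its log2 ratio was 0.47 without cells marked as doublets.

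Of 15 pre-B cell receptor signalling genes 2 were higher and 0 lower, with a median log2 ratio of 0.07. Blnk, the adaptor of the receptor, had a ratio of 0.979 (0.932 to 1.03), and the kinase genes Syk and Btk of 0.935 and 1.05. Bank1, an adaptor gene of later B cells, stood at 66.1 CPM in femur pro-B cells and 199 CPM in ectopic ones, a ratio of 3.02 (2.60 to 3.504), with 62.8% of the ectopic UMIs in 5 cells. Cd22, an inhibitory receptor gene, rested on 30 and 32 UMIs, a ratio of 2.91 (1.71 to 4.95).

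Late B cell genes were higher in the sum over cells but not in most cells. Of 11 measured genes 6 were higher and 1 lower, with a median log2 ratio of 0.85. H2-Aa, an MHC class II gene, stood at 22.1 CPM in femur pro-B cells and 235 CPM in ectopic ones, a ratio of 10.6 (8.63 to 13.2), and Cd74, the invariant chain gene, at 55.5 and 363 CPM, a ratio of 6.54 (5.69 to 7.54). H2-Eb1 and H2-Ab1 had ratios of 10.2 and 4.15. The median of both H2-Aa and Cd74 was 0 UMIs per cell in each library. One ectopic cell held 281 of the 441 H2-Aa UMIs, with 319 of Cd74, 5 of Dntt, 38 of Vpreb1 and 2 of Igkc, and it was not marked as a doublet. It also held 28 UMIs of Cst3, 2 of Ighd and 0 of Ms4a1, and the source of its class II RNA was not tested.

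In all, 5 femur and 6 ectopic cells had at least 10 H2-Aa UMIs, a set chosen after its values were seen, of which 2 and 3 were marked as doublets. In the other 287 and 98 cells H2-Aa stood at 5.81 CPM (3.89 to 8.35) and 8.39 CPM (4.59 to 14.1), and Cd74 at 22.6 and 13.2 CPM. Without those cells 1 of 8 measured late genes was higher and 3 were lower, with a median of 0.09, where 5.77% of all genes were higher and 9.56% lower. Without marked doublets 5 of 11 late genes were higher, 2 were lower and the median was 0.57.

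Mitosis genes were lower as a group. Of 15 genes of the G2 and M phase 14 were lower and 0 higher, against 8.11% of all genes lower, with a median log2 ratio of -0.87. Cycling pro-B cells carry these genes together (13 of 13 measured were higher in them). This count and the smaller ectopic share of cycling cells are thus not separate observations. The interval of that share's log2 ratio included 0 in 6 of 11 other settings. Plk1, a mitotic kinase gene, stood at 67.4 CPM in femur pro-B cells and 29.8 CPM in ectopic ones, Aurkb, another, at 93.2 and 43.7 CPM, and Top2a, which untangles chromosomes, at 632 and 298 CPM. Within cycling cells alone 5 of 15 were lower and the median was -0.50. Without marked doublets 14 of 15 were lower. With cells from 1 Dntt UMI in the gate, where 6.81% of all genes were lower and 5.33% higher, 5 were lower and the median was -0.48. S phase genes, of DNA replication, had 1 of 15 higher, 1 lower and their median at -0.16. The exceptions were the repair gene Ung, higher at 19.7 and 38.9 CPM, and the nucleotide reductase gene Rrm1, lower with a log2 ratio of -0.66.

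Of the list of D cyclins, MYC and kinase inhibitors 2 of 12 genes were higher, 2 were lower and the median was -0.11. Ccnd3, the D cyclin gene needed by B cell precursors, stood at 853 and 668 CPM, a ratio of 0.783 (0.735 to 0.834). Ccnd2, another D cyclin gene, was higher at 55.3 and 151 CPM, a ratio of 2.73 (2.31 to 3.24), with log2 ratios of 1.64 within cycling and 0.89 within non-cycling cells. Thinned to 3000 UMIs, Ccnd2 was seen in 11.5% (8.08 to 15.8) of femur and 23.1% (15.4 to 32.4) of ectopic pro-B cells, and in 63.4% and 69.0% of T cells, which use it. Myc was higher at 18.4 and 36.2 CPM. Cdkn2d and Cdkn2c, genes of kinase inhibitors, were lower with log2 ratios of -0.84 and -0.68, and Cdkn2d had 0.45 within non-cycling cells.

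Surface genes of B cell stages held 2 of 8 higher and 0 lower, with a median of 0.05. Enpep, which encodes the BP-1 antigen that appears late in the pro-B stage, stood at 29.5 CPM in femur pro-B cells and 105 CPM in ectopic ones, a ratio of 3.57 (2.88 to 4.45). It was seen in 10.5% (7.19 to 14.6) of femur and 22.1% (14.6 to 31.3) of ectopic cells thinned to 3000 UMIs, and in 0 of 227 and 0 of 258 T cells, which allows up to 1.32% and 1.16%. Its log2 ratio was 2.10 within cycling and 1.36 within non-cycling cells. In all other cells outside CAR cells Enpep had a ratio of 1.05, and without the 5 highest pro-B cells of each library one of 2.63. Spn (CD43), Cd93 and Bst1 (BP-3), all of early B cells, had log2 ratios of -0.20, -0.15 and 0.01. The other gene past the rule was Cd34, whose 24 ectopic UMIs lay in 3 cells.

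Homing genes had 3 of 11 lower, 0 higher and a median of -0.39. Cxcr4, the receptor gene for CXCL12, stood at 106 and 82.5 CPM, a ratio of 0.782 (0.650 to 0.937), and Itga4, a chain of the VLA-4 adhesion receptor, at 629 and 480.4 CPM, a ratio of 0.764 (0.709 to 0.823). Past the rule were Itgb2, the β2 integrin gene, Itgb7 and Ptk2 (FAK), with log2 ratios of -1.001, -0.77 and -0.82. Without the cells rich in S100a8 0 of 10 were lower, with a median of -0.39, and without marked doublets 1 of 9. Within cycling cells 6 of 10 homing genes were lower and the median was -0.68, and within non-cycling cells 1 of 9 and -0.31. In these splits 13.2% and 6.58% of all genes were lower. The splits kept the cells rich in S100a8, which were 21 of 119 femur and 3 of 27 ectopic cycling cells. Of the neutrophil markers 7 of 7 were lower within cycling cells, and the part of those cells in the homing count was not tested. Early progenitor genes had 3 of 8 lower and 0 higher, with a median of -0.40. Meis1, a homeobox gene of progenitors, was lower at 79.1 and 41.5 CPM, and in all other cells outside CAR cells it had a ratio of 0.538.

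Neutrophil markers had 6 of 7 genes lower and a median log2 ratio of -1.57, and their summed level was 32073 CPM in femur and 12987 CPM in ectopic pro-B cells. Without the cells rich in S100a8 0 of the 7 were past the rule and the median was -0.11, while without marked doublets 6 of 7 were lower. Camp, a granule gene, stood at 2779 and 717 CPM, and its log2 ratio without those cells was 0.28. Of the myeloid progenitor list 4 of 5 were lower, of the erythroid list 5 of 6, of the monocyte list 2 of 6, of the plasmacytoid dendritic cell list 1 of 3 and of the plasma cell list 0 of 2. Of the T and NK list 1 gene was measured, and it was lower. In the CAR cell list and the basophil and mast cell list 0 genes reached 50 UMIs. The part of these RNAs in other differences was not tested beyond the values given without those cells.

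Of the 4 pro-B marker genes 0 were past the rule, with a median of 0.27. The remaining lists lay near the median of all genes or held few measured genes. Survival genes had 0 of 9 past the rule and a median of 0.21, interferon-stimulated genes 0 of 12 and 0.14, and glucocorticoid-responsive genes 0 of 8 and -0.14. MHC class I genes had 1 of 10 higher (median 0.09), heat shock genes 1 of 8 (0.00), hypoxia and glycolysis genes 2 of 15 (0.09) and cold-inducible genes 1 of 2 (0.56). Immediate early genes had 2 of 15 higher and 2 lower, with a median of -0.03. Within cycling cells, of which the ectopic library held 27, 6 of 12 immediate early genes were lower and 1 higher (median -0.70), 2 of 7 interferon-stimulated genes lower (-0.41), 3 of 8 heat shock genes higher (0.29) and 4 of 14 hypoxia and glycolysis genes higher (0.35). Within non-cycling cells 0 of 12 immediate early genes were lower (median 0.11). Without marked doublets 5 of 15 hypoxia and glycolysis genes were higher (0.29). Of 8 fetal-type lymphoid genes 2 were measured and neither was past the rule, and Lin28b, which holds fetal B cells in their program, had 0 UMIs in the pro-B cells of both libraries.

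**Figure D4:**
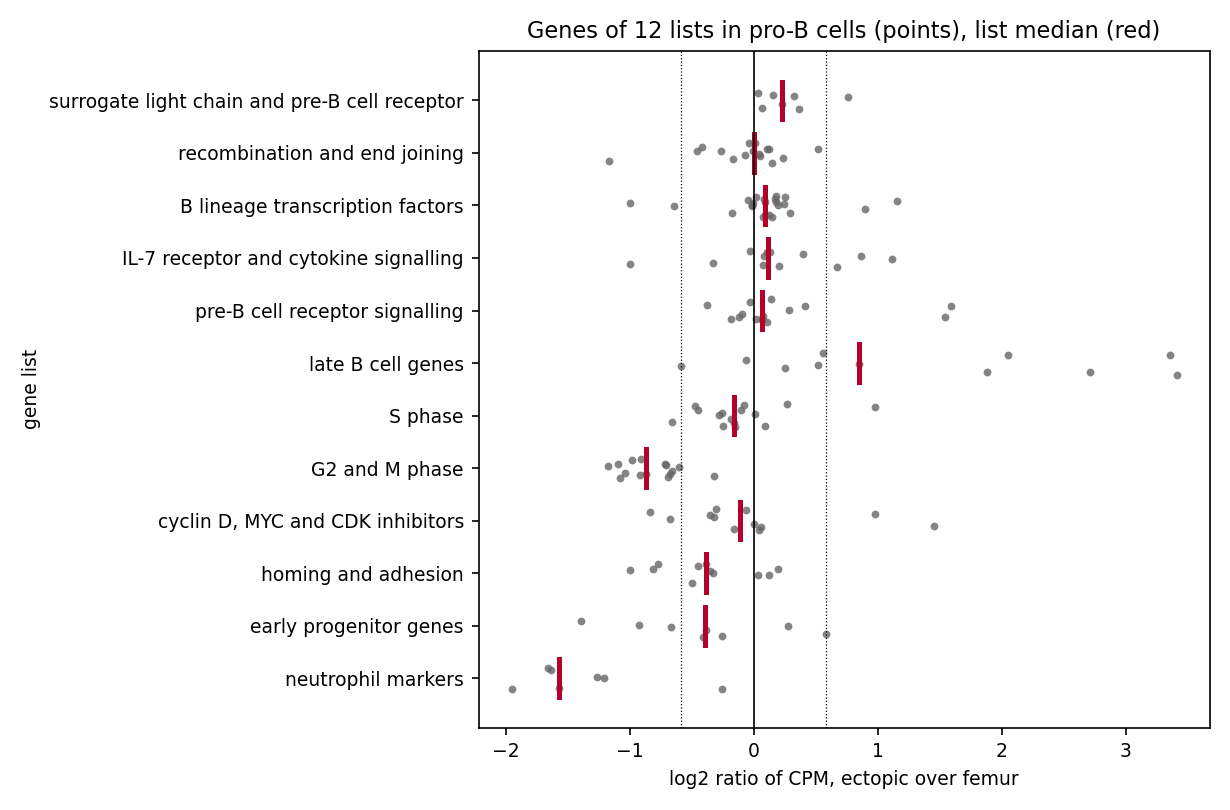
Log2 ratio of CPM, ectopic over femur (x axis), of each measured gene in the lists named on the y axis, with the list median marked. The recombination and transcription factor lists lie around 0, the G2 and M phase genes lie left with a median of -0.87, and the late B cell genes reach 3.41 for H2-Aa.

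Of the genes that reached 100 CPM in either library, the 12 with the highest ratios included H2-Aa, H2-Eb1, Cd74, Pcdh9, H2-Ab1, Enpep, Bank1, Ccnd2, Tmem163, Dennd5b and Id3. Pcdh9 stood at 62.1 and 258 CPM, with UMIs in 35 femur and 22 ectopic cells, and its log2 ratio was 1.22 within non-cycling cells. Within cycling cells Pcdh9 had 39 femur and 0 ectopic UMIs, which bounds its log2 ratio at -1.86 or lower when 3 counts stand for the 0. Tmem163 had a ratio of 2.11, of 1.06 without the 5 highest cells of each library, and a log2 ratio of -0.67 within cycling cells. Dennd5b was spread more evenly, at 55.1 and 113 CPM with UMIs in 126 of 292 femur and 65 of 104 ectopic cells.

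The 12 lowest were Elane, Chil3, Ly6c2, Camp, Wfdc21, Ngp, Hp, Lcn2, Ltf, Lyz2, Kif11 and Prtn3. All but Kif11 are genes of granulocytes or monocytes. Elane, neutrophil elastase, had 1228 femur UMIs, 88.0% of them in 5 cells, and 6 ectopic UMIs. Kif11, a motor of the mitotic spindle, stood at 229.8 CPM in femur pro-B cells and 82.5 CPM in ectopic ones, a ratio of 0.359 (0.302 to 0.425).

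Set against cycling precursors of the same library, which share the Ebf1 limit but have under 2 Dntt UMIs, pro-B cells had more of the surrogate light chain and Rag genes. Of 8811 genes, 502 (5.7%) were at least 2-fold higher in pro-B cells in both libraries and 174 (1.97%) at least 2-fold lower. The gates used measured genes, so these ratios describe them and test nothing. Vpreb1 stood at 1797 against 119 CPM in the femur and 2246 against 246 CPM in the ectopic library, and Igll1 at 1145 against 124 CPM in the femur and 1341 against 238 CPM in the ectopic library. Rag1 had log2 ratios of 2.45 and 2.71, and Rag2 of 1.61 and 1.88. The comparison gate held only cells above the cycling cut, against 40.8% of femur and 26.0% of ectopic pro-B cells. The G2 and M phase list had median log2 ratios of -0.80 (femur) and -1.60 (ectopic). Rag1, Vpreb1 and Igll1 were themselves lower in CPM in cycling than in non-cycling pro-B cells. The part of this unequal share of cycling cells in the ratios was not tested.

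Beside Dntt, the highest ratios against cycling precursors included those of Arpp21, an RNA-binding protein gene, at 741 against 11.5 CPM in the femur and 632 against 16.3 CPM in the ectopic library, and of the transcription factor gene Erg, at 569 against 21.6 CPM in the femur and 602 against 20.6 CPM in the ectopic library. Lef1, a factor of WNT signalling, had log2 ratios of 2.41 and 2.23, the stem cell factor receptor gene Kit of 1.82 and 2.46, and Esr1, the estrogen receptor gene, of 3.36 and 3.39. Lowest was Myl4, a myosin light chain gene, at 23.3 against 465 CPM in the femur and 12.2 against 469.8 CPM in the ectopic library. Of the late B cell list 2 of 12 genes were higher and 2 lower, and of the pre-B cell receptor signalling list 2 of 15 and 1. These lists thus went both ways, with median log2 ratios of -1.18 (femur) and 0.65 (ectopic) for the late genes and 0.21 and 0.11 for the signalling genes. B lineage transcription factors did so too, with 3 of 23 higher and 4 lower. The genes named next were picked from the lower ones only. Single genes known from later stages that were lower had log2 ratios of -2.88 and -1.74 for Ikzf3 and -1.72 and -1.40 for Irf4. The kinase gene Blk had -2.05 and -1.54, and Il2ra -4.06 and -3.46. Il7r had log2 ratios of -0.73 and -0.43, and Pax5 of 0.04 and 0.24, both within 2-fold.

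Against resting precursors, 878 of 7800 genes (11.3%) were at least 2-fold higher in pro-B cells in both libraries and 516 (6.62%) at least 2-fold lower. The gate asks for low Mki67 and Top2a, and 15 of 15 S phase and 15 of 15 G2 and M phase genes were higher in pro-B cells. Vpreb1 stood at 1797 against 66.5 CPM in the femur and 2246 against 71.8 CPM in the ectopic library, while Vpreb3, another gene of the family, had log2 ratios of -0.16 and -0.15. Lowest in pro-B cells were the interleukin 2 receptor gene Il2ra, at 2.15 against 260.1 CPM in the femur and 2.66 against 259 CPM in the ectopic library, and Reln, with the adhesion gene Cd2 at log2 ratios of -5.41 and -5.29. The λ light chain genes Iglc1, Iglc2 and Iglc3 were among the lowest as well, but they are near-identical copies whose reads may be divided. Spib, a factor of later B cells, had log2 ratios of -3.04 and -3.05, and Sox4 of -1.39 and -1.26.

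Against Ighd cells, 1062 of 9829 genes (10.8%) were at least 2-fold higher in pro-B cells in both libraries and 797 (8.11%) at least 2-fold lower. Of the late B cell list 13 of 14 were lower and 0 higher. Ms4a1, the CD20 gene, stood at 14.5 against 633 CPM in the femur and 13.8 against 743 CPM in the ectopic library, and Ciita, the main activator of class II genes, at 1.76 against 232 CPM in the femur and 7.99 against 243 CPM in the ectopic library. Il7r was higher in pro-B cells with log2 ratios of 3.43 and 4.12, and Lef1 with 5.17 and 5.10. Pax5 (-0.65 and -0.43) and Cd79a (-0.52 and -0.58) were within 2-fold.

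**Figure D5:**
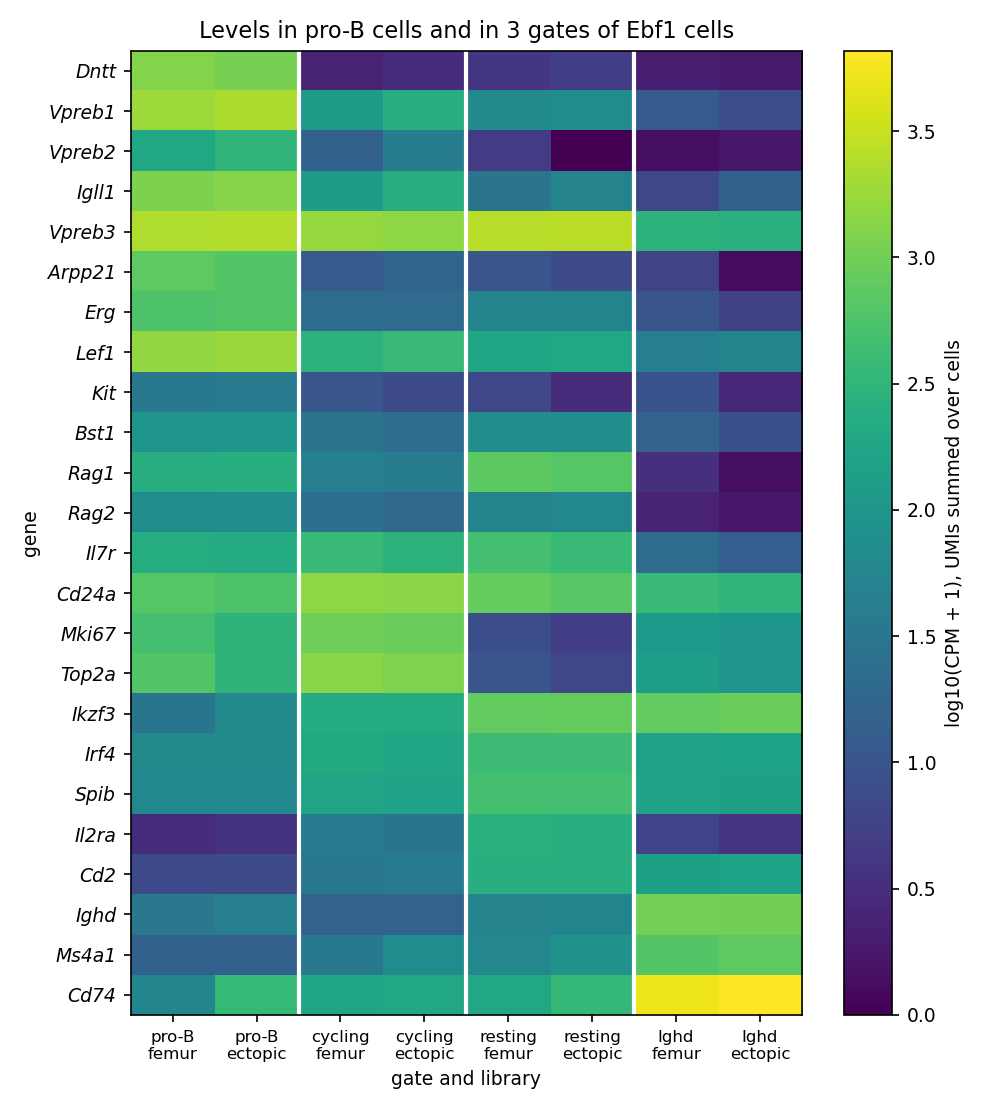
Levels (colour, log10 of CPM plus 1) of selected genes (rows) in pro-B cells and in the cycling, resting and Ighd gates of each library (columns), to be read along a row only. Vpreb1, Igll1, Arpp21 and Erg are highest in the pro-B columns of both libraries, and Ms4a1 in the Ighd columns.

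Within the gate, few other genes differed at least 2-fold in both libraries with the amount of Dntt. At least 10 Dntt UMIs were found in 205 of 292 femur cells (70.2%, 64.6 to 75.4) and 62 of 104 ectopic cells (59.6%, 49.5 to 69.1). Of 6050 genes 7 (0.116%) were at least 2-fold higher in these cells in both libraries, Dntt among them, and 24 (0.397%) at least 2-fold lower. Vpreb1 had log2 ratios of 0.16 and 0.06, Igll1 of 0.05 and 0.00, and Rag1 of -0.30 and -0.08. The calcium pump gene Atp2b4 was higher, at 113 against 49.9 CPM in the femur and 86.4 against 39.7 CPM in the ectopic library. Of the late B cell list 2 of 9 were lower and of the pre-B cell receptor signalling list 0 of 14. Single genes that were lower had log2 ratios of -1.95 and -2.93 for Igkc, -1.38 and -1.99 for Ikzf3 and -1.38 and -1.74 for Irf4. The 19 femur and 8 ectopic cells rich in Igkc had median Dntt counts of 6 and 5 UMIs. How far such few cells made these ratios was not tested. S phase genes had 1 of 15 higher, but their medians were 0.71 and 1.36, against 0.03 and -0.01 over all genes. Ranked next after Atp2b4 were Pola1, Uhrf1, Mcm3 and Mcm6. Cycling cells, with their larger totals, had median Dntt counts of 26 and 21 UMIs against 13 and 11 in the others, and the part of depth in this split was not tested.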

How the data were processed

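Single-cell RNA was captured with 10x Genomics 3′ chemistry v3.1. The authors deposited 1 matrix of raw UMI counts per library, per the file headers from Cell Ranger 7.0.1. The mouse build was GRCm39 per the submitters' processing notes, and the annotation version is not given in the sources used here. The files list 34184 genes, and 37 symbols stand for more than 1 identifier. From these counts, UMIs were summed over cells of a gate in each library and divided by the gate's total (CPM). The libraries held 123009924 (femur) and 86018367 (ectopic) UMIs. The femur gate summed to 5117130 and the ectopic gate to 1877744 UMIs.

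The members and the gene lists (21 gene lists and 10 marker lists) were chosen with earlier results of these data known. Shares have exact binomial (Clopper-Pearson) intervals, and ratios exact conditional intervals of 2 counts, at 95%. No test was made because each tissue was 1 library. A gene passed the rule of size at 1.5-fold with at least 50 UMIs over both libraries, and against other cells of the same library at 2-fold in both. A share of 0 was given the limit of 3 counts. Cells were thinned at random without replacement to 3000 or 1500 UMIs. Doublets were scored beside simulated sums of 2 cells (30 principal components of 2000 variable genes), marked at 0.8% per 1000 cells and kept, with an alternative without them. The calculations were tested on simulated data.

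Genes were named by this rule: the 3 highest and 3 lowest of each list, all of the surrogate light chain, recombination, transcription factor and IL-7 lists, and the 12 highest and 12 lowest of each comparison with at least 100 CPM, leaving out mitochondrial, ribosomal, globin and immunoglobulin variable genes. A few genes that the rule would name are not reported here. Other list members were named for their known roles after their values were seen. Alternatives changed the cell filters, gate limits, doublets, scaling (TMM, median of ratios, mean of per-cell CPM), gene minimum and fold. Promoters were matched by symbol to a RefSeq table of another build than the counts. Calculations used pandas 2.3.3, scikit-learn 1.9.0, scipy 1.17.1 and numpy 2.4.6 in Python 3.11.15, and figures matplotlib 3.10.9.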

Additional observations from a re-analysis of the deposited data

How the results depend on the processing

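No paired analysis was possible because each tissue was 1 library, and no library could be left out in turn. The log2 ratio of pro-B cell shares ranged from -0.92 to -0.72 over cells outside CAR cells, from -1.21 to -1.01 over Ebf1 cells and from -0.79 to -0.51 for cycling cells over the settings tried, and was below 0 in all, but the interval of the cycling ratio included 0 in 6 of 11. The 551 higher and 783 lower genes became 250 and 406 after thinning to 3000 UMIs, where fewer genes were measured, 949 and 1225 at 20 UMIs per gene, and 105 and 279 at 2-fold, and 448 were lower within non-cycling cells. Of the mitosis genes 5 were lower with Dntt from 1 UMI, 5 within cycling cells and 4 at 2-fold. At 1.5-fold the higher and lower genes were 1055 and 656 against cycling precursors, 1507 and 1011 against resting precursors and 1996 and 1383 against Ighd cells. After thinning, 176, 217 and 541 were higher against these gates and 277 lower against resting precursors, and 508 were lower against cycling precursors by the mean of per-cell CPM.

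Log2 ratios changed sign for Itgb7 (0.71 with Dntt from 1 UMI, 0.72 without cells with 5 UMIs of T and NK, myeloid progenitor or erythroid precursor markers, a part of the erythroid list with no globin gene) and Cd34 (-1.54 with Dntt from 5 UMIs, -0.46 without those cells, -1.52 without cells from 10 H2-Aa UMIs). They also did for Flt3 (0.47) and Ikzf3 (-0.40) without marked doublets, Camp (0.28) without cells rich in S100a8, Cd74 (-0.78) without cells from 10 H2-Aa UMIs, Cdkn2d (0.45) within non-cycling cells, and Pcdh9 (-1.86 or lower, from 0 ectopic UMIs) and Tmem163 (-0.67) within cycling cells. Medians changed sign for the erythroid list (0.76 with Dntt from 1 UMI, 0.17 without doublets, 0.16 without cells with other markers, 0.36 within non-cycling cells), the T and NK list (2.43 with Dntt from 1 UMI) and the myeloid progenitor list (1.22 without cells rich in S100a8). The causes were not tested.

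Shares of cells with a UMI followed depth. At 3000 UMIs, Igll1 UMIs were found in 88.8% (femur) and 93.3% (ectopic) of pro-B cells, Rag1 in 47.9% and 55.8%, and Il7r in 46.9% and 32.7%. Unthinned, Igll1 was seen in 93.5% of femur cells, Rag1 in 81.5% and 79.8%, and Il7r in 78.1% and 69.2%. At 1500 UMIs, Vpreb1 was seen in 86.0% of femur cells, Igll1 in 77.7% and 77.9%, Rag1 in 34.6% and 35.6%, and Il7r in 27.4% of femur cells. The settings without cells rich in S100a8, in Flt3 or Igkc, or in H2-Aa were chosen after seeing the data.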
